A study of Homo sapiens with 24 samples.

Results

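HL-60, an established human promyelocytic leukemia line, was compared in its solvent-treated state with the solvent-treated state of 3 other acute myeloid leukemia (AML) lines. The comparison was defined by the sample labels alone. It used 12 of the 24 arrays of the series, 3 from HL-60 and 9 from MOLM-14, U937 and KG-1 (3 each). All 12 had received DMSO, the solvent, for 24 h. MOLM-14 and U937 are monocytic lines, and MOLM-14 carries both a fusion of MLL to AF9 and an internal tandem duplication in FLT3. KG-1 resembles an early myeloblast. The remaining 12 arrays came from the same 4 lines after 24 h with R406, the active form of the SYK inhibitor fostamatinib, at 4 µM per the treatment protocol. Those arrays were used to see which HL-60 differences were also present, or changed, under the drug. They also counted in the choice of 1 probe set per gene. Each group is 1 cell line, so a difference belongs to HL-60 as kept in DMSO and not to promyelocytic leukemia in general. No array came from untreated cells, so a standing line difference and a response of a line to DMSO cannot be told apart.

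The promyelocyte is the stage of granulocyte development at which the primary (azurophil) granules are made and filled with myeloperoxidase, serine proteases and antimicrobial proteins. Secondary granules, chemoattractant receptors and the phagocyte oxidase follow at later stages of neutrophil maturation. HL-60 is known for its capacity to mature towards granulocytes or monocytes under chemical inducers, and also towards eosinophil-like cells.

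RNA levels were read as probe set intensities on an Affymetrix array. Each gene stands here as its brightest probe set, by the mean of the 24 arrays, and the genes so measured numbered 12165. Intensities are given per array or as the mean ± SD of 3 arrays. The HL-60 difference is the mean log2(intensity + 1) of HL-60 minus the equal-weight mean of the other 3 lines, given ± SE from limma's fit. It understates differences of dim genes. Intensities of different genes were not compared with each other, because probe sets differ in how strongly they bind. A gene was called when its limma adjusted p was under 0.05 and its difference reached 2-fold. Whether the 3 arrays of a line are separate cultures is not stated in the labels. The p-values therefore cover only array-to-array spread, which may be technical.

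HL-60 differed from the mean of the other lines in both directions at similar frequency. Of the 12165 genes, 488 were called higher in HL-60 (4.01%) and 619 lower (5.09%). The median difference of all genes was 0.020. For 355 of the higher genes (2.92% of all genes) the 3 HL-60 arrays lay above all 9 other arrays, and for 323 of the lower genes (2.66%) they lay below all 9. Against single lines, the called genes were 630 higher and 712 lower than in MOLM-14 (5.18% and 5.85%), 659 and 759 against U937 (5.42% and 6.24%), and 799 and 996 against KG-1 (6.57% and 8.19%). These 3 comparisons share the HL-60 arrays. The nearest line was U937 for 148 of the 355 higher genes, MOLM-14 for 124 and KG-1 for 83. For the 323 lower genes it was MOLM-14 for 126, U937 for 105 and KG-1 for 92. A distance of 16-fold or more from every other line was reached by 7 genes upward (MPO, PRG2, LPL, SERPINB10, CD14, FPR1 and HP) and by 4 downward (CD93, TUBB6, MEIS1 and IGFBP2).

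**Figure D1:**
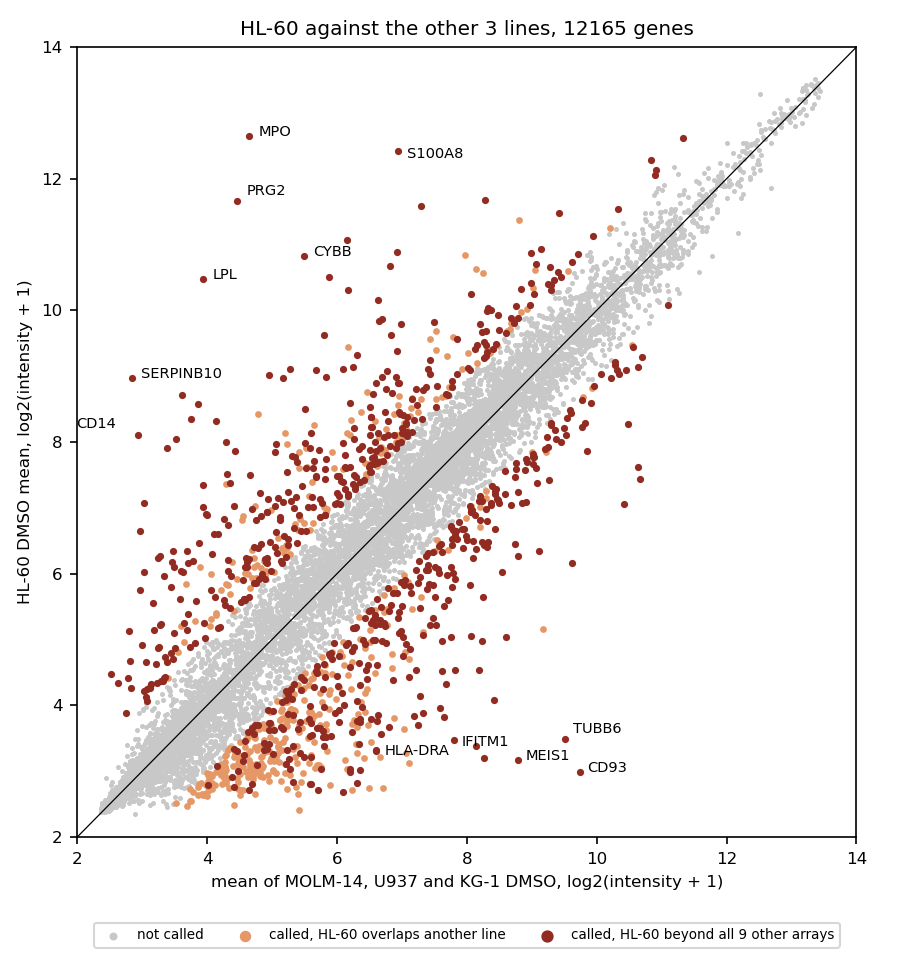
Mean log2(intensity + 1) of the 3 HL-60 DMSO arrays (vertical) against the equal-weight mean of the MOLM-14, U937 and KG-1 DMSO groups (horizontal), with 1 point for each of the 12165 genes and a line of equal level. Grey points were not called, dark red points were called with HL-60 beyond all 9 other arrays and orange points were called with HL-60 overlapping at least 1 other array.

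Array medians were 19.1 to 19.5 in HL-60 and 19.7 to 20.5 in the other lines, and intensities ran from 3.42 to 12548. The lower tertile of genes lay under 12.02 in mean intensity, which bounds what can be read from low values. Between arrays of a line the correlation of log2 values across probe sets was 0.997 to 0.998, and between lines 0.924 to 0.956. The 3-prime to 5-prime log2 ratio of the control probe sets, which rises as RNA degrades, was higher in HL-60. For ACTB it was 0.874 ± 0.057 (SD, n = 3 arrays) against 0.413 to 0.764 in the 9 other arrays, a difference of 0.31 (exact 2-sided permutation p = 0.00455, the smallest 3 against 9 arrays can give). For GAPDH it was 0.126 ± 0.064 against -0.243 to -0.0906, a difference of 0.31 (exact 2-sided permutation p = 0.00455). The ACTB ratio of the 3-prime to the middle probe set differed by 0.049 (exact 2-sided permutation p = 0.195), and that of GAPDH by 0.12 (exact 2-sided permutation p = 0.0136). The permutations treated arrays as exchangeable, although 3 came from each line, so their p-values do not measure spread between lines. The part of the 3-prime to 5-prime ratio in the differences below was not tested.

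The 3 genes taken as HL-60 markers all ranked among the 20 highest of the genes called with non-overlapping arrays. MPO, the myeloperoxidase of primary granules, measured 6547, 6341 and 6359.9 in the HL-60 arrays, against 47.2, 44.9 and 39.97 in MOLM-14, 12.1, 10.3 and 10.4 in U937 and 29.5, 24.5 and 31.6 in KG-1. The difference of 8.002 ± 0.078 (limma adjusted p = 1.90e-17) is 256-fold. A second MPO probe set gave 7.97. PRG2, the major basic protein of eosinophil granules, measured 3132, 3139 and 3405 in HL-60. In the other arrays it measured 27.4, 23.8 and 25.998 in MOLM-14, 14.2, 14.4 and 16.2 in U937 and 25.8, 23.7 and 22.7 in KG-1, giving a difference of 7.196 ± 0.064 (limma adjusted p = 1.31e-17). Both genes were far brighter in HL-60 than in any of the 9 other arrays. S100A8, a calcium-binding protein abundant in neutrophils and monocytes, measured 5397, 5019 and 5991 in HL-60. It was graded among the other lines, with 530.4, 564 and 620.5 in MOLM-14, 209, 225 and 242 in U937 and 14.02, 11.4 and 14.3 in KG-1, and differed by 5.48 ± 0.080 (limma adjusted p = 1.04e-15). The 3 markers were chosen with earlier results of these arrays known, so their high level is a description and no check of the labels. The RNA came from whole cultures, so more cells with a transcript and more RNA per cell cannot be told apart.

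**Figure D2:**
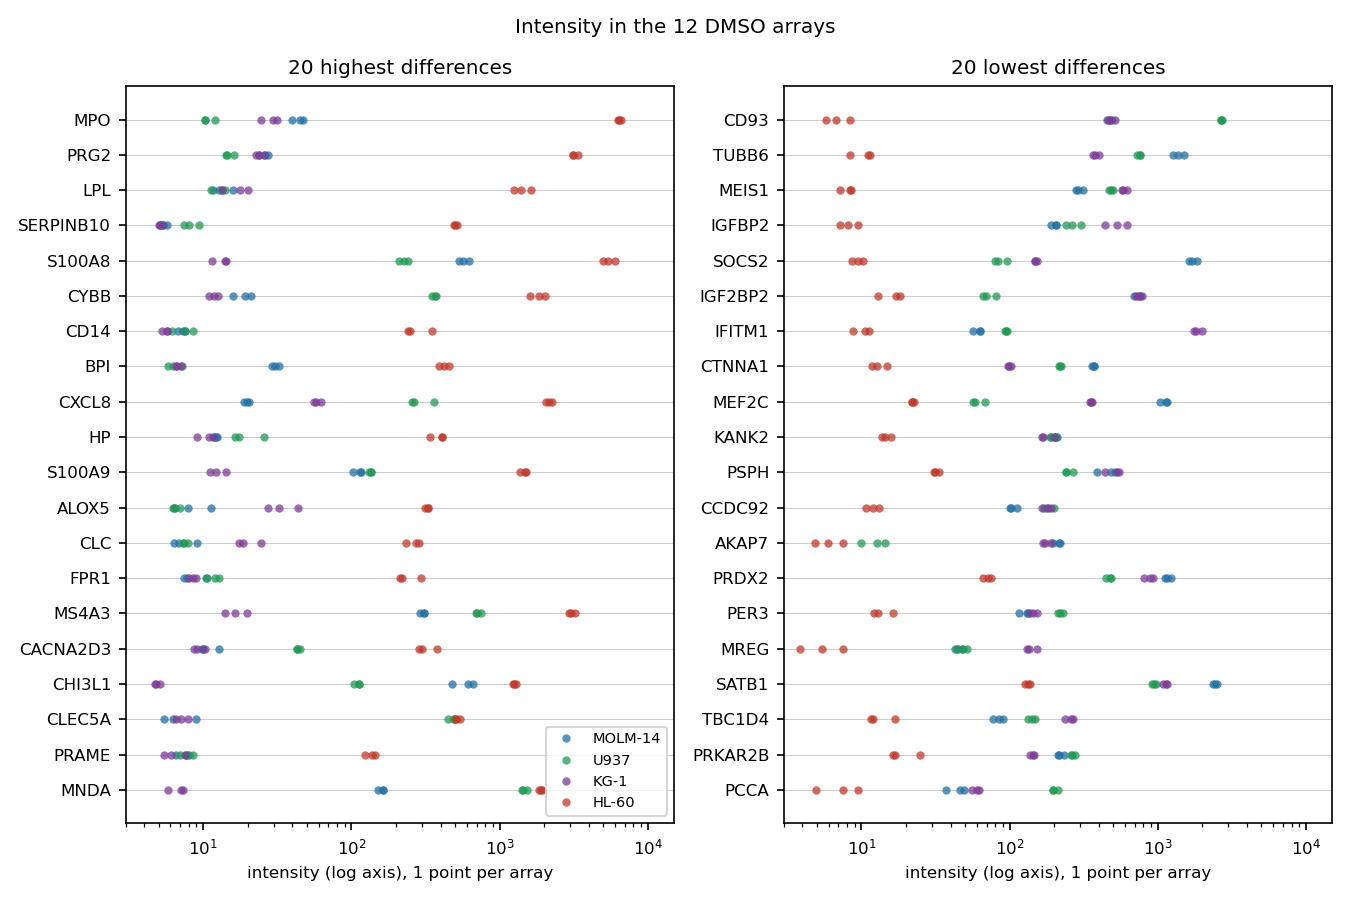
Intensity (logarithmic axis) of the 20 highest and 20 lowest HL-60 differences among called genes with non-overlapping arrays, 1 point per DMSO array. The HL-60 points (red) lie to the right of all others on the left panel and to the left of all others on the right panel, and for CLEC5A and MNDA the U937 points lie next to them.

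Primary granule genes were the list with the largest share of members called higher. Of 14 members measured, 8 were called higher in HL-60 and 0 lower, against 4.01% and 5.09% of all genes, with a median difference of 1.45. These shares of all genes are the background for the counts of every other list. The size depended on the line compared: the median was 0.62 against MOLM-14, 0.19 against U937 and 4.26 against KG-1. In 7 of the 14 members the HL-60 arrays lay above all 9 others (11.4% of all genes): MPO, BPI, MS4A3, PRTN3, DEFA4, CD63 and SRGN. BPI, which permeabilizes bacteria and binds endotoxin, measured 455, 389 and 422 in HL-60 against means of 30.6 in MOLM-14, 6.403 in U937 and 6.76 in KG-1, a difference of 5.11 ± 0.068 (limma adjusted p = 4.17e-16). MS4A3, a membrane protein of granulocyte progenitors, measured 3067 ± 129.6 against 302 in MOLM-14, 717 in U937 and 16.7 in KG-1 (difference 4.29 ± 0.078). PRTN3, proteinase 3, measured 785 ± 26.6 against 358 in MOLM-14, 258 in U937 and 15.4 in KG-1 (difference 2.78 ± 0.100). DEFA4, a defensin, was low throughout but higher in HL-60, at 54.9 ± 8.01 against 10.5 in MOLM-14, 10.1 in U937 and 9.32 in KG-1. CD63, a granule membrane protein, and SRGN, the granule proteoglycan, differed by 0.85 ± 0.052 and 0.76 ± 0.049, under 2-fold.

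Of the other granule proteins, ELANE, AZU1, CTSG and RNASE2 were not higher in HL-60 than in MOLM-14 or U937. ELANE, neutrophil elastase, measured 2894, 2453 and 2580.4 in HL-60, against 2924, 2945 and 3233 in MOLM-14, 3053, 2900.1 and 2878 in U937 and 7.73, 10.3 and 9.47 in KG-1. Its call (difference 2.56 ± 0.077) rested on KG-1: against MOLM-14 the difference was -0.20 and against U937 -0.16, and it was -0.18 without KG-1. AZU1, an inactive serine protease homolog with antimicrobial action, measured 160.1 ± 7.29 in HL-60 against 792 ± 5.53 in MOLM-14, 186 ± 5.15 in U937 and 9.57 ± 1.602 in KG-1. CTSG, cathepsin G, measured 817 ± 15.03 in HL-60, 3285 ± 154 in MOLM-14, 6414 ± 163 in U937 and 164 ± 11.5 in KG-1. In both genes MOLM-14 lay above HL-60, and HL-60 minus MOLM-14 was -2.300 for AZU1 and -2.005 for CTSG on the log2 scale. RNASE2, the eosinophil-derived neurotoxin, was also highest in MOLM-14 (3114 ± 196 against 1545 ± 2.599 in HL-60) and was called higher in HL-60 through KG-1 (63.8). CFD, complement factor D, lay in HL-60 (673 ± 69.5) between MOLM-14 (1400.4 ± 78.3) and U937 (219 ± 8.34). Against KG-1, 12 of the 14 members were called higher in HL-60 (6.57% of all genes in that comparison), and against MOLM-14 6 were higher and 4 lower.

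**Figure D3:**
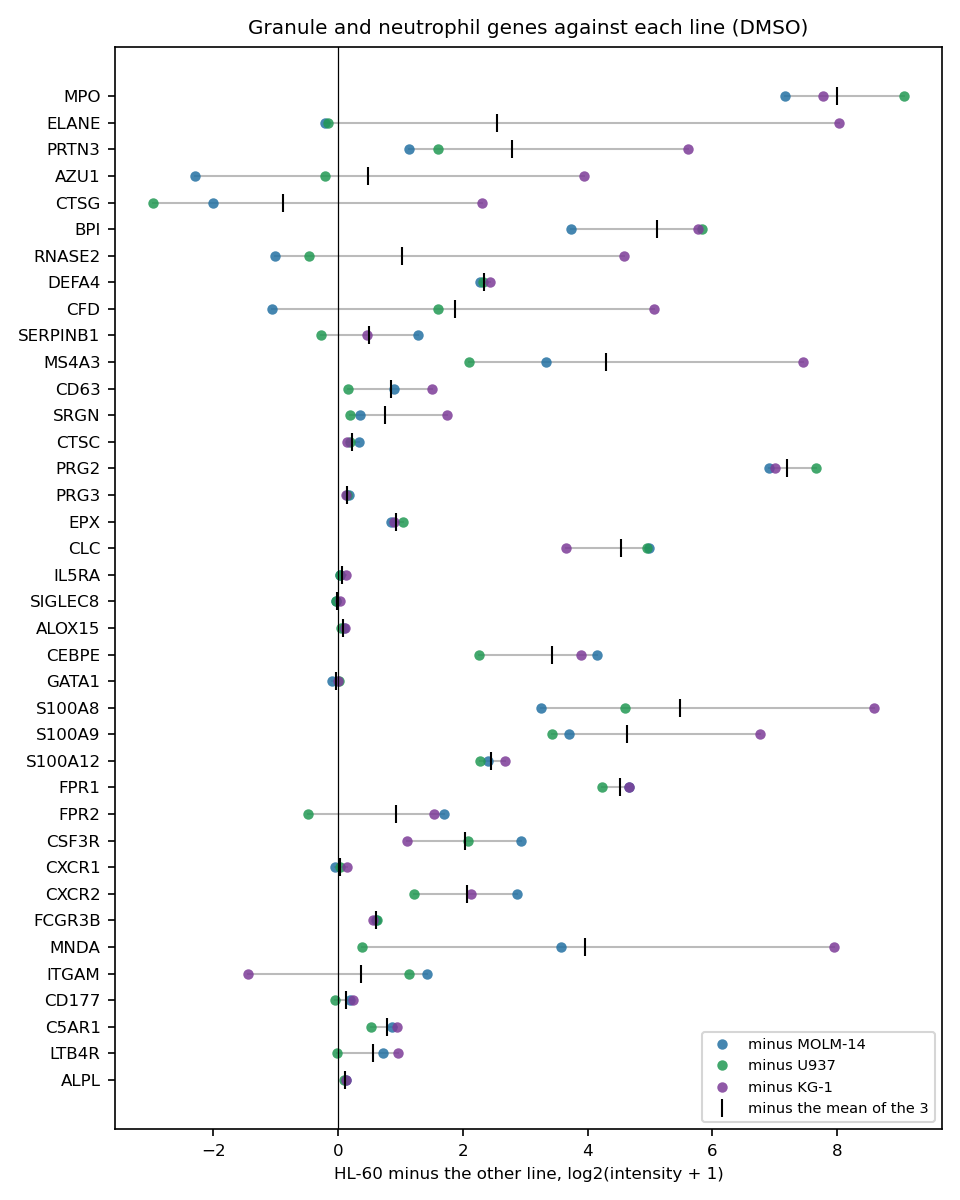
HL-60 minus each other line (coloured points) and minus the mean of the 3 (black bar), on the log2(intensity + 1) scale in DMSO arrays, for the members of the primary granule, eosinophil and neutrophil lists. MPO, BPI, PRG2, CLC, S100A8, S100A9 and FPR1 lie above 2 against all 3 lines, whereas ELANE, AZU1, CTSG and RNASE2 lie below 0 against MOLM-14 and U937 and above 2 against KG-1.

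Genes of the eosinophil granule were partly present in HL-60. Of 10 members of the eosinophil list, 4 were called higher and 0 lower, against 4.01% and 5.09% of all genes, with a median of 0.54. They were PRG2, CLC, CEBPE and RNASE2. CLC, the Charcot-Leyden crystal galectin, measured 273, 235 and 285 in HL-60, and its 9 other arrays had means of 7.44 in MOLM-14, 7.53 in U937 and 20.2 in KG-1 (difference 4.53 ± 0.11, limma adjusted p = 1.15e-13). EPX, eosinophil peroxidase, measured 14.99 ± 3.45 against 7.81 in MOLM-14, 6.701 in U937 and 7.51 in KG-1: the HL-60 arrays lay above the other 9, but the difference of 0.93 ± 0.11 missed 2-fold. The lineage receptors IL5RA (7.68) and SIGLEC8 (9.16) and the transcription factor GATA1 (5.96) were at the dim end in HL-60, with differences of 0.061, -0.0085 and -0.026. Mast cell and basophil markers were not higher in HL-60: 0 of 7 were called higher and 2 lower, both of them bright only in KG-1 (CPA3 11.3 in MOLM-14, 11.6 in U937 and 322 in KG-1, with 16.7 in HL-60, and FCER1A 5.38 in MOLM-14, 5.61 in U937 and 85.9 in KG-1, with 5.24 in HL-60).

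Neutrophil maturation genes and chemoattractant receptors were called in 1 direction, higher in HL-60. Of 15 members, 7 were called higher and 0 lower, with a median of 0.92, and in 9 of the 15 the HL-60 arrays lay above all 9 others (11.4% of all genes). S100A9, the partner of S100A8 in calprotectin, measured 1501, 1367 and 1495 in HL-60 and had means of 111 in MOLM-14, 134 in U937 and 12.5 in KG-1. S100A12, of the same family, measured 70.8 ± 7.66 against 12.5 in MOLM-14, 13.8 in U937 and 10.3 in KG-1. FPR1, the receptor for bacterial formyl peptides, measured 296, 212 and 219 in HL-60 against 10.5, 7.78 and 7.36 in MOLM-14, 10.6, 12.8 and 11.96 in U937 and 8.06, 8.96 and 8.55 in KG-1 (difference 4.52 ± 0.11, limma adjusted p = 1.39e-13). FPR1 was thus near the dim end in all other lines, while the related FPR2 measured 28.8 ± 6.05 in HL-60 and 40.4 ± 7.29 in U937. CSF3R, the receptor for granulocyte colony-stimulating factor, measured 119, 102 and 128 in HL-60 against means of 14.5 in MOLM-14, 27.2 in U937 and 53.3 in KG-1 (difference 2.04 ± 0.13). CXCR2, a receptor for CXCL8, measured 112 ± 9.14 against 14.4 in MOLM-14, 47.8 in U937 and 24.96 in KG-1 (difference 2.07 ± 0.074). MNDA, a nuclear protein of myeloid cells, was high in both HL-60 (1892 ± 33.3) and U937 (1458 ± 54.5), against 159 ± 7.44 in MOLM-14 and 6.73 ± 0.798 in KG-1. The Fc receptor FCGR3B (12.05 in HL-60), CD177 (9.35) and the alkaline phosphatase ALPL (5.92), all of mature neutrophils, were not called, with differences of 0.60, 0.13 and 0.11.

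Secondary granule genes were called in both directions. Of 14 members, 3 were called higher and 2 lower, with a median of 0.20. In 5 of the 14 the HL-60 arrays lay above all 9 others and in 0 below (11.4% and 7.9% of all genes). ORM1, an acute-phase glycoprotein, measured 99.2 ± 10.7 in HL-60 against 6.76 in MOLM-14, 7.07 in U937 and 6.76 in KG-1, and the adhesion molecule CEACAM6 measured 113 ± 6.23 against 15.8 in MOLM-14, 27.6 in U937 and 13.97 in KG-1. The defining protein of the granule, lactoferrin (LTF), measured 8.06 ± 0.944 against 6.54 in MOLM-14, 6.42 in U937 and 5.601 in KG-1, a difference of 0.33 ± 0.074. CRISP3 (4.63 in HL-60, 242 in KG-1) and TCN1, a vitamin B12 binder (8.62 and 151), were called lower, and both were bright only in KG-1.

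The promoters of 4 of these genes are shown, because the genes are high together in HL-60 and some are textbook targets of myeloid transcription factors. Each sequence is the 250 bases before the RefSeq transcription start on GRCh38.p14, 5′ to 3′ on the gene's strand. S100A8 lies on chr1:153391074-153391323 (minus strand, the middle of 3 listed starts) and S100A9 on chr1:153357604-153357853 (plus strand). CYBB lies on chrX:37779809-37780058 and MS4A3 on chr11:60056415-60056664, both on the plus strand. Capitals mark matches on either strand to GAGGAA (a PU.1 core), TTGCNNAA (a C/EBP site) or TGTGGT (a RUNX core).
S100A8: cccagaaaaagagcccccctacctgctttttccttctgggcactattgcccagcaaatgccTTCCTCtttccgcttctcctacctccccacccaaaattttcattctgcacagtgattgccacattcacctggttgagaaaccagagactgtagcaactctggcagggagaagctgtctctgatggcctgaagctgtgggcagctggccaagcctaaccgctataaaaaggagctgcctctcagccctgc
S100A9: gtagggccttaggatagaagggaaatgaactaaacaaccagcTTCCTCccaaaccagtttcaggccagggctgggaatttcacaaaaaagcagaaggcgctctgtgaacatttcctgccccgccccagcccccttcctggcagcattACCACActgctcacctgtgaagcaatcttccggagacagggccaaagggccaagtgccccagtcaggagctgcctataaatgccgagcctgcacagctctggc
CYBB: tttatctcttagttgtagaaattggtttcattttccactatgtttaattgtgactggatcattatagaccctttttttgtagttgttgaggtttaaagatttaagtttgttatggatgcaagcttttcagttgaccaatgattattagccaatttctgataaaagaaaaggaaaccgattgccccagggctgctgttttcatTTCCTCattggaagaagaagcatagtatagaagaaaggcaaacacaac
MS4A3: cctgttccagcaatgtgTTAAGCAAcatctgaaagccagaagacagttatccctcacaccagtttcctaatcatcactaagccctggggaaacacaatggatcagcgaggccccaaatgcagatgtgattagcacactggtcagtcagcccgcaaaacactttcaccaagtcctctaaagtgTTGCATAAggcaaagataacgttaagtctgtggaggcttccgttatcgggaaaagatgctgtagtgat
A match to GAGGAA lay on the strand opposite to the printed one at -189 in S100A8, at -208 in S100A9 and at -48 in CYBB, counted from the start. S100A9 also held a match to TGTGGT at -103, and MS4A3 held matches to TTGCNNAA at -233 and -68. Of the 20 highest genes, 13 had a window, with 1 window used per gene, and 9 of these held GAGGAA, 2 held TTGCNNAA and 2 held TGTGGT. The others of the 20, MPO and PRG2 among them, had no window. The same windows of all 27305 listed genes, measured on the array or not, held the motifs in 23.5%, 9.21% and 11.2%. The shares were not tested against each other. A match describes letters in the window and not binding, and no binding was measured.

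CYBB, the catalytic subunit of the phagocyte NADPH oxidase, measured 1595, 2013 and 1859 in HL-60. In the other lines it measured 19.03, 20.9 and 15.9 in MOLM-14, 365, 348 and 375 in U937 and 11.01, 11.8 and 12.6 in KG-1 (difference from the mean 5.34 ± 0.083, limma adjusted p = 2.05e-15). U937 was the nearest line. NCF4, a cytosolic regulator of the oxidase, measured 1367 ± 13.01 against 373 in MOLM-14, 614 in U937 and 560.4 in KG-1 (difference 1.44 ± 0.053). Its membrane partner CYBA measured 1137 ± 33.5 against 2056 in MOLM-14, 1092 in U937 and 1032 in KG-1 and was not called (difference -0.22 ± 0.051). The GTPase RAC2, which activates the complex, measured 2314 ± 107 against 1575 in MOLM-14, 902 in U937 and 1924 in KG-1: its HL-60 arrays lay above the other 9, with a difference of 0.73. Of 4 oxidase members measured, 2 were therefore called higher and 0 lower.

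Adaptors and kinases of immunoreceptor signalling, the pathway of the kinase SYK that R406 inhibits, were higher in HL-60 in part. Of 16 members, 7 were called higher and 1 lower, with a median of 0.43. TYROBP, the ITAM adaptor DAP12, measured 1229, 1109 and 1106 in HL-60 against 148, 119.98 and 134 in MOLM-14, 178, 184 and 165 in U937 and 42.1, 37.97 and 40.7 in KG-1 (difference 3.53 ± 0.068, limma adjusted p = 1.44e-14). The Fc receptor gamma chain FCER1G was high in HL-60 (433 ± 29.9) and U937 (596 ± 13.3), against 10.8 ± 2.48 in MOLM-14 and 97.8 ± 9.29 in KG-1. Among the SRC family kinases, FGR measured 501 ± 43.4 against 16.7 in MOLM-14, 239 in U937 and 10.02 in KG-1 (difference 3.81 ± 0.11), whereas LYN was lower, at 575 ± 6.33 against 831 in MOLM-14, 786 in U937 and 2946 in KG-1 (difference -1.11 ± 0.057). CARD9, which links these receptors to NF-kB, measured 180.00 ± 5.53 against 41.5 in MOLM-14, 47.003 in U937 and 7.04 in KG-1. The phosphatase PTPN6, a brake on the pathway, measured 1068 ± 57.8 against 536 in MOLM-14, 355 in U937 and 419.7 in KG-1 (difference 1.31 ± 0.055). SYK itself measured 597, 573 and 606 in HL-60 and 346, 342 and 355 in MOLM-14, 482, 495 and 449 in U937 and 549, 523 and 534 in KG-1. The HL-60 arrays were above all 9 others, but the difference of 0.41 ± 0.051 was under 2-fold. ITGB3, the integrin of the series title, was at 8.85 ± 0.293 in HL-60 and 8.93 in MOLM-14, 7.59 in U937 and 7.66 in KG-1, near the dim end in all 4 lines (difference 0.13 ± 0.093).

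Transcription factors of granulocyte development were higher in HL-60 in part. In the list of 21 myeloid factors, 7 were called higher and 1 lower (median 0.20). CEBPE, required for the step from promyelocyte to later granulocytes, measured 232, 243 and 223 in HL-60, against 13.3, 11.5 and 11.6 in MOLM-14, 44.03, 53.5 and 45.6 in U937 and 16.4, 13.02 and 15.1 in KG-1. Its difference was 3.44 ± 0.077 (limma adjusted p = 7.84e-14). CEBPD, another member of the C/EBP family, measured 547 ± 17.1 against 201 in MOLM-14, 6.71 in U937 and 86.1 in KG-1 (difference 3.43 ± 0.10). CEBPA, which commits progenitors to the granulocyte lineage, measured 2240.2 ± 129 against 1605 in MOLM-14, 1254 in U937 and 468 in KG-1 (difference 1.19 ± 0.059). CEBPB was not higher in HL-60 (1010.4 ± 77.9) than in U937 (1196 ± 41.6). GFI1, a repressor needed for neutrophil development, measured 826 ± 30.02 against 357 in MOLM-14, 637 in U937 and 136 in KG-1 (difference 1.39 ± 0.068). SPI1, which encodes PU.1, measured 35.4 ± 3.78 against 15.5 in MOLM-14, 21.1 in U937 and 15.1 in KG-1, with all HL-60 arrays above the others. IRF8, a factor that favours monocytes over granulocytes, measured 292 ± 5.72 in HL-60, 1740.2 ± 25.1 in MOLM-14, 393 ± 6.85 in U937 and 16.8 ± 0.515 in KG-1. The IRF8 level of HL-60 thus lay below MOLM-14 and U937 and above KG-1. GFI1B, the factor called lower, was bright only in KG-1 (76.99 against 5.92 in HL-60).

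Monocyte markers differed from gene to gene. Of 20 members, 4 were called higher and 1 lower (median 0.20). CD14, the endotoxin co-receptor, measured 348, 249 and 241 in HL-60 and 6.76, 7.53 and 7.31 in MOLM-14, 7.495, 6.18 and 8.52 in U937 and 5.26, 5.72 and 5.71 in KG-1, a difference of 5.17 ± 0.10 (limma adjusted p = 2.23e-14). CD14 was therefore near the dim end in both monocytic lines. CD86, a costimulatory ligand, measured 78.1 ± 3.56 against 10.6 in MOLM-14, 10.1 in U937 and 35.9 in KG-1. FCGR1A, the high-affinity IgG receptor, was close in HL-60 (332 ± 16.6) and MOLM-14 (309.7 ± 3.58), with 84.5 in U937. The FCGR2B probe set was called lower through MOLM-14 (269.9 against 20.6 in HL-60). Among toll-like receptors, TLR2 measured 186 ± 11.5 against 91.9 in MOLM-14, 41.05 in U937 and 12.4 in KG-1 (difference 2.32 ± 0.061), and TLR4 overlapped between HL-60 (35.9 ± 1.66) and U937 (33.2 ± 9.19). ITGAM, the CD11b chain of phagocytes, measured 178 ± 6.08 in HL-60 against 66.2 in MOLM-14, 80.1 in U937 and 487 in KG-1 and was not called.

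Several of the largest HL-60 differences lay outside the myeloid lists. LPL, lipoprotein lipase, measured 1255, 1630.02 and 1399.7 in HL-60 and 11.7, 12.7 and 15.9 in MOLM-14, 13.4, 11.2 and 14.003 in U937 and 13.4, 20.1 and 17.7 in KG-1 (difference 6.54 ± 0.12, limma adjusted p = 7.84e-15). SERPINB10, an intracellular serine protease inhibitor of myeloid cells, measured 491, 516 and 503 in HL-60 and under 10 in each of the other arrays (difference 6.14 ± 0.060, limma adjusted p = 1.90e-17). Both genes separated HL-60 from all 3 lines by more than 16-fold. CXCL8, the chemokine interleukin-8, measured 2140.4, 2259 and 2071 in HL-60 against 19.9, 20.3 and 18.97 in MOLM-14, 256, 266 and 362 in U937 and 57.5, 56.02 and 61.996 in KG-1 (difference 4.92 ± 0.086). Of its 9 probe sets, a second gave 3.96, and the other 7 lay at about 7 to 10 in both HL-60 and the mean of the other lines, near the dim end. ALOX5, 5-lipoxygenase of leukotriene synthesis, measured 324 ± 10.7 against 8.52 in MOLM-14, 6.57 in U937 and 34.5 in KG-1 (difference 4.59 ± 0.14), and its 3 dimmer probe sets gave 2.27, 1.29 and -0.11. HP, haptoglobin, measured 384 ± 40.9 against 12.2 in MOLM-14, 19.8 in U937 and 10.5 in KG-1, and its other probe sets gave 0.57 each. CHI3L1, a chitinase-like secreted protein, was also bright in MOLM-14 (1261 ± 29.1 against 585 in MOLM-14, 109 in U937 and 4.89 in KG-1). CLEC5A, a DAP12-coupled lectin, was nearly as bright in U937 (476 ± 25.03) as in HL-60 (519 ± 20.01), with 6.87 in MOLM-14 and 7.17 in KG-1. PRAME, a tumour antigen of germ cells and leukemias, measured 135 ± 10.6 against 7.44 in MOLM-14, 7.76 in U937 and 6.36 in KG-1. In its list of 13 cancer-testis genes, PRAME and MAGEB2 (17.7 ± 0.509 against 6.999 in MOLM-14, 7.95 in U937 and 6.51 in KG-1) were the 2 called higher. CACNA2D3, a calcium channel subunit, measured 319.9 ± 48.9 against 10.9 in MOLM-14, 43.5 in U937 and 9.34 in KG-1.

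Among inflammatory mediators, CCL2 and TNF were each shared with 1 other line. Of 19 NF-kB and cytokine genes, 5 were called higher and 1 lower (median 0.066). The monocyte attractant CCL2 measured 701 ± 82.6 in HL-60 and 1255 ± 62.3 in U937, against 20.2 and 13.3 in MOLM-14 and KG-1. TNF measured 242 ± 43.8 in HL-60 and 302 ± 16.8 in MOLM-14, against 27.9 and 10.3. The TNF receptor TNFRSF1B was higher in HL-60 than in each line, at 666 ± 43.8 against 144 in MOLM-14, 239.6 in U937 and 50.5 in KG-1 (difference 2.46 ± 0.067). It was among 6 of 22 growth factor and cytokine receptors called higher, with IGF1R (112 ± 11.5 against 48.7 in MOLM-14, 84.96 in U937 and 8.89 in KG-1) and CSF2RB, the shared chain of the IL-3 and GM-CSF receptors (313 ± 17.3 against 59.96 in MOLM-14, 145 in U937 and 267 in KG-1). The 2 called lower were IL3RA (15.6 ± 2.05 against 164 in MOLM-14, 18.2 in U937 and 51.3 in KG-1) and FGFR1 (27.1 ± 3.79 against 288 in MOLM-14, 24.2 in U937 and 323 in KG-1), each near its U937 level in HL-60.

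The gene furthest below the other lines was CD93, a C-type lectin-like receptor of myeloid and endothelial cells. It measured 6.702, 5.78 and 8.42 in HL-60 and 489.9, 476 and 458 in MOLM-14, 2691, 2662 and 2715 in U937 and 459, 475 and 517 in KG-1 (difference -6.75 ± 0.080, limma adjusted p = 1.13e-16). TUBB6, a class V beta-tubulin, measured 11.4, 11.1 and 8.42 in HL-60 against 1378, 1271 and 1512 in MOLM-14, 719, 764 and 759 in U937 and 399, 365 and 375 in KG-1 (difference -6.03 ± 0.080). IGFBP2, which binds insulin-like growth factors, measured 8.07, 7.15 and 9.53 in HL-60 against means of 201 in MOLM-14, 269 in U937 and 532 in KG-1 (difference -5.06 ± 0.10). In all 3 genes HL-60 was at the dim end of the intensity range and each other line was not. SOCS2, a feedback inhibitor of cytokine receptor signalling, measured 9.48 ± 0.847 against 1725 in MOLM-14, 86.3 in U937 and 149.96 in KG-1, and MOLM-14 was far above the other lines. IGF2BP2, an RNA-binding protein, was low in HL-60 (16.1 ± 2.78) and U937 (72.3 ± 7.46) relative to MOLM-14 (737 ± 34.6) and KG-1 (744 ± 36.7). SATB1, a chromatin organizer, measured 132 ± 5.68 against 2432 in MOLM-14, 943 in U937 and 1128 in KG-1 (difference -3.37 ± 0.051). MEF2C, a transcription factor of myeloid and lymphoid progenitors, measured 22.2 ± 0.335 against 1115 in MOLM-14, 61.4 in U937 and 353 in KG-1. CTNNA1, alpha-catenin of cell junctions, measured 13.2 ± 1.63 against 369 in MOLM-14, 218 in U937 and 99.6 in KG-1 (difference -3.83 ± 0.062).

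Stem and progenitor genes were the list with 8 of 20 members called lower and 0 higher, at a median of -0.20. MEIS1, a cofactor of HOX proteins in leukemia stem cells, measured 7.13, 8.35 and 8.502 in HL-60 and 283, 313 and 290.01 in MOLM-14, 482, 472 and 496 in U937 and 583, 572 and 619 in KG-1. Its difference was -5.61 ± 0.060 (limma adjusted p = 4.92e-17). PBX3, which forms complexes with MEIS1 and HOX proteins, measured 115, 92.8 and 96.02 in HL-60 against means of 669 in MOLM-14, 164 in U937 and 375 in KG-1 (difference -1.76 ± 0.077, limma adjusted p = 9.03e-11). These 2 were the members called lower whose HL-60 arrays lay below all others. The other 6 called lower were bright only in KG-1. CD34, the progenitor surface marker, measured 17.9 ± 3.18 in HL-60 and 17.01 in MOLM-14, 18.1 in U937 and 613 in KG-1. ANGPT1 measured 9.94 ± 1.12 in HL-60 and 7.84 in MOLM-14, 9.25 in U937 and 1404 in KG-1, and the transcription factor ERG 9.47 ± 0.2705 and 8.29 in MOLM-14, 19.6 in U937 and 380.3 in KG-1. SPINK2 (7.83 against 236 in KG-1), MYCN (7.52 against 145) and HOXB2 (6.07 against 101) had the same pattern. The receptor tyrosine kinases were not called: KIT measured 37.02 ± 2.197 in HL-60 against 17.9 in MOLM-14, 14.1 in U937 and 228 in KG-1, and FLT3 measured 114 ± 5.53 against 914 in MOLM-14, 13.8 in U937 and 33.6 in KG-1. HOXA9 and HOXA10 were not analysed here.

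**Figure D4:**
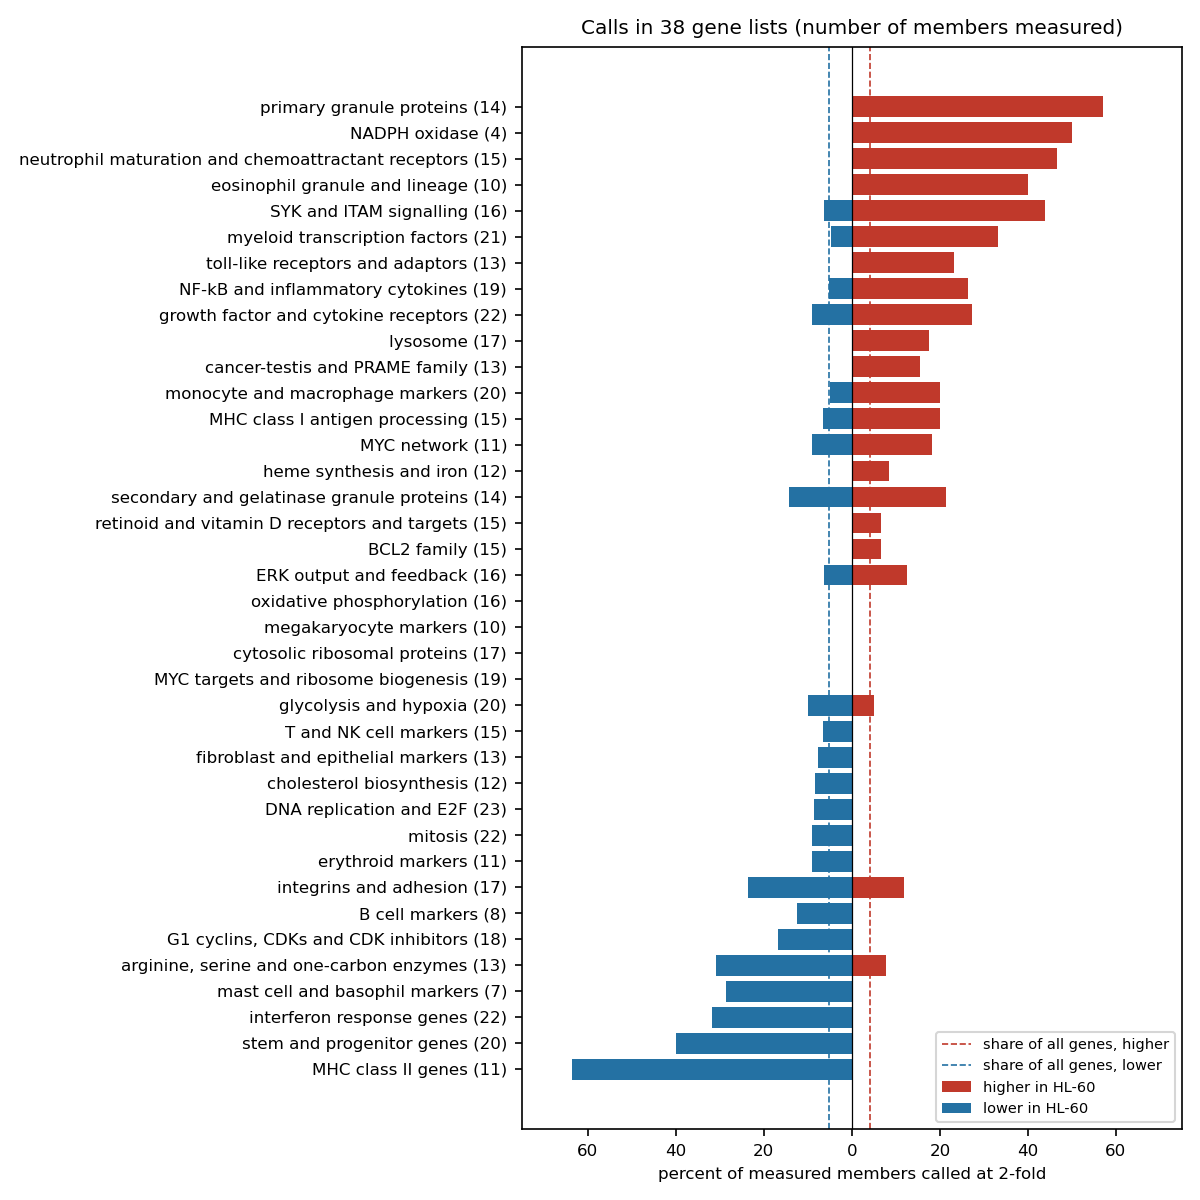
Percent of the measured members of each of 38 gene lists that were called higher (red, to the right) or lower (blue, to the left) in HL-60 DMSO arrays, with the number measured in brackets and dashed lines at the shares of all genes (4.01% and 5.09%). Primary granule, NADPH oxidase and neutrophil lists extend furthest to the right, and MHC class II and stem and progenitor lists furthest to the left.

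MHC class II genes, which present antigen to helper T cells, were near the dim end in both HL-60 and U937. Of 11 members, 0 were called higher and 7 lower (median -1.71). In each of these 7, KG-1 was the brightest line. HLA-DRA measured 12.2, 11.1 and 11.3 in HL-60 and 80.4, 70.8 and 80.1 in MOLM-14, 8.3003, 9.36 and 11.1 in U937 and 2961, 2668 and 2563 in KG-1 (difference -3.39 ± 0.078). The list's median was -4.22 against KG-1, -0.37 against MOLM-14 and 0.11 against U937. Against MOLM-14, 4 of the 11 members were called lower and 0 higher (5.85% and 5.18% of all genes in that comparison). HLA-DPA1 (5.92 against 13.02 in MOLM-14, 6.1004 in U937 and 2173 in KG-1) and the transactivator CIITA (7.27 against 9.26 in MOLM-14, 7.89 in U937 and 67.6 in KG-1) were also bright only in KG-1. CD74, the invariant chain, measured 91.3 ± 9.04 in HL-60 and 116 in MOLM-14, 32.9 in U937 and 452 in KG-1, and was not called.

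In the MHC class I pathway, the genes called higher were class I genes and the 1 called lower was a peptidase. Of 15 members of the class I pathway, 3 were called higher and 1 lower (20% and 6.67%, against 4.01% and 5.09% of all genes), and 11 were not called (median 0.37). In 6 of the 15 the HL-60 arrays lay above all 9 others and in 2 below (11.4% and 7.9% of all genes). HLA-B measured 6667, 6565 and 5726 in HL-60 against 3322, 2991 and 2990.4 in MOLM-14, 2295, 2241 and 2367 in U937 and 2364, 2259.97 and 2577 in KG-1 (difference 1.29 ± 0.064, limma adjusted p = 3.56e-10). HLA-C measured 4249 ± 85.4 against 2345 in MOLM-14, 1684 in U937 and 1765 in KG-1, and HLA-F 255 ± 8.98 against 182 in MOLM-14, 103 in U937 and 106 in KG-1. Probe sets of these genes can bind transcripts of related class I genes, and alleles of the lines can bind with unequal strength, so the 3 are not independent. ERAP1, the peptidase that trims peptides for class I loading, was lower, at 36.2 ± 1.603 against 419 in MOLM-14, 52.6 in U937 and 230.4 in KG-1 (difference -2.22 ± 0.078).

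Interferon-induced genes were called in 1 direction, lower in HL-60. Of 22 members, 0 were called higher and 7 lower, with a median of -0.66, and in 6 members the HL-60 arrays lay below all 9 others (7.9% of all genes). IFITM1, a membrane protein that restricts virus entry, measured 11.2, 8.72 and 10.6 in HL-60 and 62.7, 62.9 and 56.3 in MOLM-14, 95.04, 93.8 and 96.7 in U937 and 2002, 1762 and 1799 in KG-1 (difference -4.32 ± 0.071, limma adjusted p = 3.34e-15). Its neighbours IFITM2 (196 ± 17.04 against 739.9 in MOLM-14, 1564 in U937 and 3452 in KG-1) and IFITM3 (64.1 ± 6.33 against 185 in MOLM-14, 356 in U937 and 781 in KG-1) were lower as well. The probe sets of the 3 IFITM genes can bind each other's transcripts, so they may share signal. IFI16, a DNA sensor, measured 76.6 ± 9.54 against 135 in MOLM-14, 415 in U937 and 1538 in KG-1 (difference -2.52 ± 0.078). In these 4 genes HL-60 was lowest and KG-1 highest. IFIT1, IFI44 and GBP1 were called through KG-1: IFI44 measured 8.39 in HL-60 and 7.26 in MOLM-14, 7.76 in U937 and 161 in KG-1.

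Adhesion molecules differed in both directions. Of 17 members, 2 were called higher and 4 lower (11.8% and 23.5%, against 4.01% and 5.09% of all genes; median 0.13). ITGB7, the integrin beta chain of gut homing, measured 67.5, 111 and 89.9 in HL-60 against means of 24.2 in MOLM-14, 9.23 in U937 and 11.3 in KG-1 (difference 2.598 ± 0.12). ICAM1, a ligand of leukocyte integrins, was lower, at 15.4, 14.1 and 14.9 in HL-60 against means of 70.9 in MOLM-14, 116 in U937 and 68.7 in KG-1 (difference -2.401 ± 0.087). ICAM2 (28.2 ± 5.24 against 176 in MOLM-14, 54.2 in U937 and 279 in KG-1) and the hyaluronan receptor CD44 (459 ± 6.01 against 636 in MOLM-14, 848 in U937 and 1797 in KG-1) were lower too. ICAM3 was higher than in MOLM-14 and U937 but lower than in KG-1 (891 ± 22.1 against 288 in MOLM-14, 189 in U937 and 1268 in KG-1).

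The serine synthesis pathway was lower in HL-60 at each of its 3 enzymes. PHGDH, the first, measured 85.8, 89.02 and 82.7 in HL-60 and 339, 356 and 387 in MOLM-14, 288, 265 and 274 in U937 and 292, 284 and 288 in KG-1 (difference -1.82 ± 0.055, limma adjusted p = 1.64e-12). PSAT1, the second, measured 75.98, 107 and 83.6 against means of 533 in MOLM-14, 269.5 in U937 and 195 in KG-1 (difference -1.76 ± 0.14). PSPH, which releases serine, measured 33.4, 30.9 and 31.3 against 387, 485 and 515 in MOLM-14, 269, 242 and 242 in U937 and 545, 530.3 and 439 in KG-1 (difference -3.56 ± 0.087, limma adjusted p = 1.78e-13). All 3 had HL-60 arrays below the other 9. They were 3 of the 4 called lower among 13 arginine, serine and one-carbon enzymes, of which ARG1 was called higher (20.5 ± 3.51 against 6.06 in MOLM-14, 5.54 in U937 and 5.996 in KG-1). Under R406 the PSPH difference was -3.65, whereas those of PHGDH and PSAT1 were -0.57 and -0.053. PRDX2, a peroxide-reducing enzyme, measured 70.8 ± 4.05 against 1165 in MOLM-14, 471 in U937 and 874 in KG-1 (difference -3.45 ± 0.060), while its other 3 probe sets gave -2.37, -0.64 and 0.16. In glycolysis, the muscle-type phosphofructokinase PFKM measured 67.9 ± 0.942 against 11.1 in MOLM-14, 9.96 in U937 and 9.58 in KG-1 (difference 2.62 ± 0.054), and hexokinase 1, HK1, was lower (109 ± 8.65 against 128 in MOLM-14, 368 in U937 and 274 in KG-1).

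MYC target, oxidative phosphorylation and ribosomal protein genes held no calls at 2-fold, and the replication and mitosis lists held a few, all lower in HL-60. Of 19 MYC target and ribosome biogenesis genes, 16 oxidative phosphorylation genes and 17 ribosomal protein genes, 0 were called in either direction, with medians of -0.046, 0.081 and 0.031. At an adjusted p under 0.05 without the fold minimum, limma placed 5 MYC targets higher and 5 lower, against 26.9% and 24.8% of all genes. For oxidative phosphorylation these counts were 6 and 7, and for ribosomal proteins 1 and 3. MYC, known to be amplified in HL-60, measured 5678, 5903 and 6352 in HL-60 and 3853, 4122 and 4004 in MOLM-14, 3159, 3382 and 3441 in U937 and 5292, 5316 and 5257 in KG-1. The HL-60 arrays lay above all others, by 0.53 ± 0.053 on average, but by 0.18 from KG-1 and without reaching 2-fold. In the replication list, 0 of 23 were called higher and 2 lower, MCM10 (94.3 ± 5.26 against 297 in MOLM-14, 167 in U937 and 326 in KG-1) and GINS2 (218 ± 13.8 against 438 in MOLM-14, 545 in U937 and 589 in KG-1). Of 22 mitosis genes, CCNB1, cyclin B1 (299.8 ± 7.205 against 733 in MOLM-14, 1115 in U937 and 815 in KG-1), and the centromere histone CENPA (306 ± 7.37 against 443 in MOLM-14, 937.4 in U937 and 592 in KG-1) were called lower and 0 higher. The shares called lower were 8.7% in the replication list and 9.09% in the mitosis list, against 5.09% of all genes, and the medians were -0.13 and -0.081. At an adjusted p under 0.05 without the fold minimum, 2 replication genes were higher and 13 lower, and 4 mitosis genes were higher and 9 lower. CDKN2A, the p16 and ARF locus that is often deleted in leukemia lines, measured 52.8 ± 7.28 against 7.43 in MOLM-14, 284 in U937 and 14.5 in KG-1, with other probe sets at -0.34 and 0.089. MTAP, its neighbour in the genome, measured 62.5 ± 8.35 against 57.7 in MOLM-14, 107 in U937 and 95.1 in KG-1. CDKN1A, the CDK inhibitor p21, was called lower through MOLM-14 (27.04 against 279 in MOLM-14, 33.3 in U937 and 22.4 in KG-1).

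Markers of other blood and tissue cell types were mostly dim in HL-60. Of 57 markers in 5 lists (erythroid, megakaryocyte, B cell, T and NK cell, fibroblast and epithelial), 0 were called higher in HL-60 and 4 lower. These 4 were RHAG (6.66 in HL-60, 1265 in KG-1), IGHM (6.87 and 366), NKG7 (141 against 811 in U937) and KRT18 (10.3 against 176 in MOLM-14). The summed level of the 11 erythroid markers was 117 to 138 in the HL-60 arrays, against 1330.1 to 1506 in KG-1. The 10 megakaryocyte markers summed to 98.7 to 110.04, the 8 B cell markers to 69.6 to 72.5, the 15 T and NK cell markers to 258 to 266 and the 13 fibroblast and epithelial markers to 104 to 121 in HL-60.

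The HL-60 differences were also read in the 12 R406 arrays, which share no array with the DMSO comparison. There, 482 genes were called higher with non-overlapping arrays (3.96%) and 447 lower (3.67%). Of the 355 genes higher in DMSO, 213 were among these 482 (60% of the 355 and 44.2% of the 482), and of the 323 lower, 204 were among the 447 (63.2% and 45.6%). The sign of the difference was the same in 349 of the 355 and 310 of the 323. MPO differed by 7.85, PRG2 by 6.76, LPL by 6.01, SERPINB10 by 5.59 and S100A8 by 5.55 in R406 arrays. CD93 differed by -6.24, TUBB6 by -4.75 and MEIS1 by -6.27. These genes were thus far from the other lines under the drug as well. The median difference in R406 arrays was 0.97 for the replication list and 0.68 for the mitosis list, against -0.0043 for all genes. Of the 4 members of these lists called lower in DMSO, MCM10 differed by 0.76, GINS2 by 0.65, CCNB1 by -0.56 and CENPA by 0.18, and their HL-60 arrays overlapped those of other lines.

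**Figure D5:**
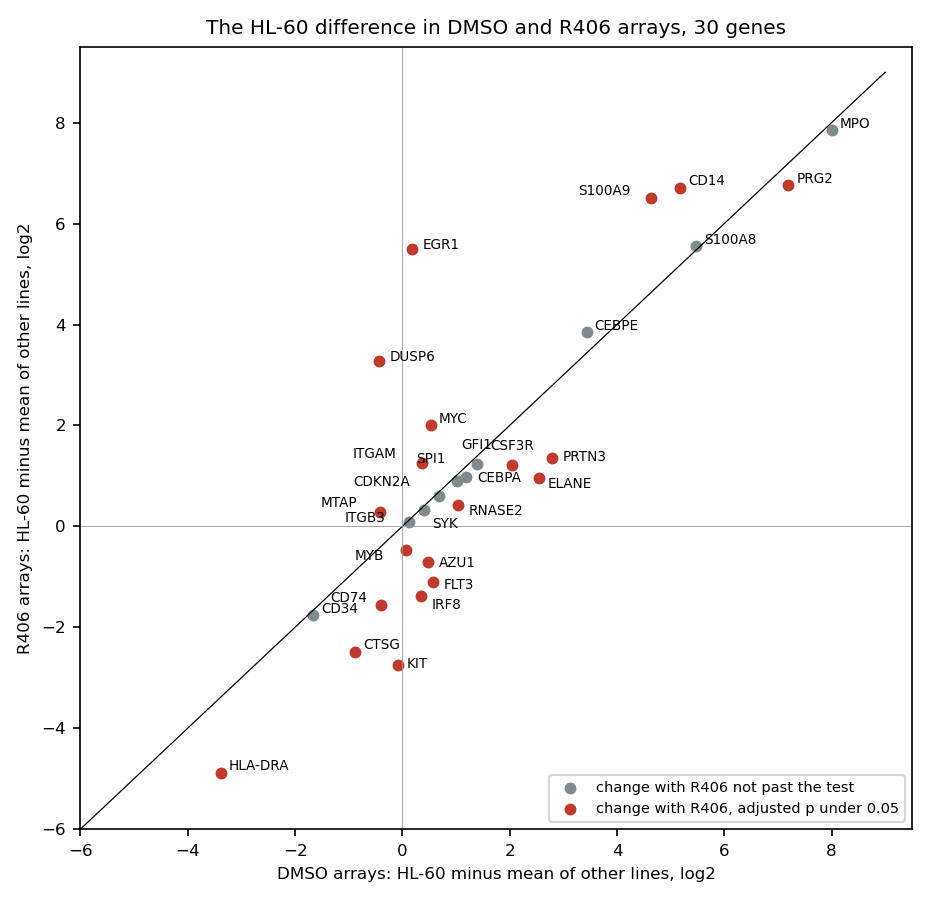
HL-60 minus the mean of the other 3 lines on the log2(intensity + 1) scale in DMSO arrays (horizontal) and R406 arrays (vertical) for 30 chosen genes, with a line of equal difference. Red points are the 20 genes whose difference changed with R406 in limma's interaction test, among them EGR1, DUSP6 and MYC above the line and KIT, FLT3 and IRF8 below it.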

How the data were processed

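RNA of 4 AML lines treated with DMSO or R406 was measured on Affymetrix arrays. Deposited values are probe set intensities made by the authors with RMA, per the submitters' processing notes, on a linear scale as their range shows, so log2(intensity + 1) was tested. RMA sets all arrays to 1 distribution, so shifts common to most genes are not measured. The version and genome build are not given in the sources used here. The treatment protocol gives the R406 dose in µM and the design text in mM.

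Of 22277 probe sets, 62 controls, 568 of several symbols and 1923 of no listed symbol were left out. The other 19724 entered limma 3.58.1 (R 4.3.3; lmFit, eBayes) as 12 DMSO arrays in 4 groups, with 8 residual and 5.82 prior degrees of freedom. Benjamini-Hochberg adjustment ran over all of them. No filter was applied to dim probe sets. The brightest probe set stood for each of 12165 genes; 5096 of these sets can bind related transcripts, by their suffix. R406 arrays had a fit of their own, and the change with R406 was tested over all 24 arrays. On simulated data of 19724 probe sets, 200 changed, the DMSO fit recovered 100% of log2 changes of 1.5 and 2. The 200 were drawn from brighter probe sets only, and the lines otherwise shared a common mean. Recovery in dim probe sets, or of changes near the 2-fold limit, was not tested.

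Named genes are the 20 highest and 20 lowest called genes with non-overlapping arrays, 30 of 32 chosen genes that were measured, and members of 39 gene lists (566 of 641 measured). The comparison, genes and lists were chosen with earlier results of these data known. Alternatives were scaling, pseudocount, a dim filter, probe set choice, all arrays in 1 fit, the replicate number as a block, the variance model, and single arrays or lines left out. Promoter sequences are from RefSeq.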

Additional observations from a re-analysis of the deposited data

Results flagged for a closer look

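The difference between HL-60 and the other lines was itself compared between DMSO and R406 arrays for 30 chosen genes, with limma's interaction test over 24 arrays adjusted over all probe sets. It changed in 20 of them, upward in 7 and downward in 13. The share of all genes past this test was not counted, and the 30 were chosen with earlier results known. The count therefore has no background and says nothing of the chosen genes as a set. The drug was given to all 4 lines, so a change can come from HL-60, from the other lines or from both. The part within HL-60 is given below for some genes. Groups of 3 arrays were too small to look for single arrays that stand apart.

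The largest upward changes were those of EGR1 and DUSP6. The immediate early factor EGR1 changed by 5.32 ± 0.21 (adjusted p = 5.81e-14): HL-60 went from 48.9 ± 13.01 in DMSO to 631 ± 90.96 in R406, against R406 means of 13.5 in MOLM-14, 14.8 in U937 and 10.9 in KG-1. DUSP6, the phosphatase that acts back on ERK, changed by 3.71 ± 0.12, and measured 662 ± 62.3 in HL-60 under R406 against 308 ± 26.7 in DMSO. Within HL-60 the log2 rise was 3.69 for EGR1 and 1.10 for DUSP6. The rest of each change was a fall in the mean of the other lines. S100A9 changed by 1.88 ± 0.18 and CD14 by 1.53 ± 0.15. MYC changed by 1.47 ± 0.11, although its HL-60 level fell from 5977 ± 343 in DMSO to 3884 ± 240.3 in R406. The mean of the other lines thus fell further. ITGAM changed by 0.88 ± 0.099 and MTAP by 0.71 ± 0.21.

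The genes whose difference moved downward included granule proteases and receptors. ELANE changed by -1.59 ± 0.20, PRTN3 by -1.43 ± 0.20, AZU1 by -1.18 ± 0.11, CTSG by -1.599 ± 0.18, RNASE2 by -0.61 ± 0.089 and PRG2 by -0.43 ± 0.13. Among receptors, KIT changed by -2.68 ± 0.23, FLT3 by -1.67 ± 0.16 and CSF3R by -0.83 ± 0.18. Among class II genes, HLA-DRA changed by -1.501 ± 0.099 and CD74 by -1.15 ± 0.11. The transcription factors IRF8 and MYB changed by -1.73 ± 0.13 and -0.54 ± 0.087. ELANE in HL-60 measured 2642 ± 227 in DMSO and 769 ± 30.01 in R406. KIT in HL-60 measured 37.02 ± 2.197 in DMSO and 18.8 ± 0.716 in R406. On the log2 scale, R406 minus DMSO within HL-60 was -1.78 for ELANE, -0.94 for KIT, -0.29 for HLA-DRA and 0.064 for CSF3R. The changes of KIT, HLA-DRA and CSF3R thus lay mostly in the mean of the other lines, and that of ELANE in HL-60.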

How the results depend on the processing

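Counts of called genes over all genes stayed within 1.5 times the reported ones under the alternatives run, with 4 exceptions. Adding 16 instead of 1 before the log left 315 genes higher in HL-60 than in the mean of the other lines (488 as reported) and 411 higher than in MOLM-14 (630 as reported). Genes lower in HL-60 with arrays beyond all others numbered 323, and 503 without MOLM-14 or 493 without U937 among the lines compared, where fewer arrays have to be passed. With single arrays left out, the genes higher ranged from 479 to 496 and the genes lower from 618 to 639. With the middle control probe set in place of the 5' one, the ACTB difference fell to 0.0487 and lost its call, and the GAPDH difference fell from 0.311 to 0.122 and kept it (exact permutation p = 0.0136). The replicate number as a block left 488 genes higher and 619 lower, and changed no call among the genes named in the text. Each number occurs once in each group, so such a block cannot alter the differences, only their SE. The unchanged counts are therefore no check for a batch. All 24 arrays in 1 fit, the brightest probe sets alone and the other variance model also leave the differences as they are. They gave the same 488 and 619, and could only have moved the adjusted p. Deviations of same-numbered arrays from their group means correlated between -0.10 and 0.14 (18 pairs), so the numbers were not taken to pair the arrays.

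The sign of some differences rested on which lines were compared. Without MOLM-14 the log2 difference was -0.15 for ITGAM, -0.32 for CDKN2A, 0.098 for CYBA, 0.049 for FCGR2B, 0.30 for KRT18, 0.0071 for GATA1 and 0.0048 for SIGLEC8. Without U937 it was 0.15 for CTSG, -0.63 for FLT3, -0.012 for ITGAM and 0.00030 for SIGLEC8. Without KG-1 it was negative for AZU1 (-1.26), IRF8 (-1.499), EGR1 (-0.74), RNASE2 (-0.74), ELANE (-0.18), MYB (-0.081) and FLT3 (-0.0094). It was then positive for KIT (1.19), CD74 (0.55), CPA3 (0.51), ANGPT1 (0.20), RHAG (0.17), IFI44 (0.14), SPINK2 (0.083), MYCN (0.080), GBP1 (0.069), HOXB2 (0.035), IGHM (0.024) and CD34 (0.023). EGR1, MYB, GATA1 and SIGLEC8 were not past the threshold as reported. EGR1 turned to -0.012 with 16 added, and MYB to -0.22 as the mean of its probe sets. With arrays centred on their median, GATA1 was 0.024 and SIGLEC8 0.041. With single arrays left out, EGR1 ranged from -0.016 (without HL-60 replicate 2) to 0.36, GATA1 from -0.058 to 0.011 and SIGLEC8 from -0.080 to 0.032. Near-background intensities limit what can be said of dim genes.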
